A study of Mus musculus with 16 samples.

Results

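Ribosome biogenesis genes encode the nucleolar machinery that transcribes, modifies, cuts and folds ribosomal RNA and assembles it with ribosomal proteins. The list held 47 mouse genes, taken by gene symbol from the array's annotation, and 41 of them had a probe among the 16593 genes measured. Where a gene had several probes, the one with the highest mean over the 16 arrays stood for it, and that mean is the only measured value the choice of probes used. The genes without a probe were Polr1b, Wdr43, Utp14a, Utp18, Utp20 and Noc2l. The samples were bone marrow stromal cells of mice on a mixed CD1/C57BL6 background, grown under osteogenic conditions, which turn such cells towards bone-forming osteoblasts, for 7 days. One group of 8 arrays was wild type. The other group of 8 arrays was Hdac3 CKO, a conditional knockout in which Cre recombinase from the Osterix1 promoter, active in the osteoblast lineage, deletes the histone deacetylase gene Hdac3. Whether the wild type mice carried Cre or the floxed allele is not stated. Cells of other lineages in such a culture keep the gene, and the labels give no age or sex of the animals and do not say whether each array was a separate culture or animal, so p-values measure the spread between these arrays.

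In the nucleolus, RNA polymerase I makes a long precursor RNA. Box C/D small nucleolar ribonucleoproteins (snoRNPs) methylate it and box H/ACA snoRNPs convert chosen uridines to pseudouridine. A large early particle called the small subunit processome, and a separate series of large subunit particles, then cut and fold it into the RNA of the 2 subunits. The transcription factor Myc is a well known activator of these genes, and osteoblasts, which secrete large amounts of collagen, depend on their output.

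Intensities are given as log2, so that a difference of 1 is a doubling. The titles carry a number that falls into 5 runs of neighbouring numbers, and each run holds as many arrays of either genotype. Run 1 was WT5 and KO7, run 2 was WT13, WT14, KO15 and KO16, run 3 was WT21, WT22, KO23 and KO24, run 4 was WT30 and KO32, and run 5 was WT42, WT44, KO46 and KO47. The meaning of the number is not stated. WT13 and WT14 stood apart, with the Y-linked gene Eif2s3y at 5.89 and 6.17 where the other 14 arrays lay between 8.28 and 9.89, and with low macrophage markers given further on. They are the wild type arrays of run 2, so in that run genotype and this Y-linked signal cannot be told apart. The probe of Hdac3 ran from 10.29 to 10.52 in wild type and from 10.16 to 10.38 in Hdac3 CKO, a difference of -0.17 (exact permutation test over all arrangements of the arrays, two-sided, p = 0.00249) that did not pass over all probes (limma adjusted p = 0.932, or 0.162 with the runs as a block). Where this probe lies relative to the deleted part is not given in the sources used here.

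The 41 genes spanned mean levels from 6.07 to 13.30 with a median of 9.94. Brightest was Npm1, which encodes nucleophosmin, an abundant nucleolar chaperone. Above the median of all probes, at 6.60, lay 36 of the 41, and the dim 5 were Dkc1, Bysl, Nat10, Wdr12 and Nop16, whose probes varied little. Levels of different probes depend on the probe as well as on the RNA, so they do not rank the genes. In these mixed cultures fewer cells of a type and less RNA per cell cannot be told apart.

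The promoters of 3 genes are shown as examples. Nop2 and Tsr1 differed between runs and hold the motif marked below. Mrto4 had the largest genotype difference, also differed between runs and lacks the motif. Each runs from 250 bases before to 50 bases after the gene's start (RefSeq, GRCm38.p6, 5′ to 3′ on the gene's strand), and capitals mark CACGTG, the palindromic E-box that Myc and its partner Max are known to bind.
Nop2, chr6:125131633-125131932 (plus strand): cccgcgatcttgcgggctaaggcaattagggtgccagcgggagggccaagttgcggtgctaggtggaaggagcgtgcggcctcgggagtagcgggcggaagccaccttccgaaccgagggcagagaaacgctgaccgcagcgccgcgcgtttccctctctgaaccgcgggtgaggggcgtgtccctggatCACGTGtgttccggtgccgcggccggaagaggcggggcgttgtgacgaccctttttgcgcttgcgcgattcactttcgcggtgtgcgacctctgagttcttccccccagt
Tsr1, chr11:74897830-74898129 (plus strand): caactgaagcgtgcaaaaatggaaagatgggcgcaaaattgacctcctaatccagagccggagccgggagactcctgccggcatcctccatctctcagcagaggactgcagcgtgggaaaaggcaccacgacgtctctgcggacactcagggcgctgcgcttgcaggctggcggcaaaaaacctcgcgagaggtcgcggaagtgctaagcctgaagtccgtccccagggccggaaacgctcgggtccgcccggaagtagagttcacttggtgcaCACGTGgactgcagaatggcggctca
Mrto4, chr4:139352527-139352826 (minus strand): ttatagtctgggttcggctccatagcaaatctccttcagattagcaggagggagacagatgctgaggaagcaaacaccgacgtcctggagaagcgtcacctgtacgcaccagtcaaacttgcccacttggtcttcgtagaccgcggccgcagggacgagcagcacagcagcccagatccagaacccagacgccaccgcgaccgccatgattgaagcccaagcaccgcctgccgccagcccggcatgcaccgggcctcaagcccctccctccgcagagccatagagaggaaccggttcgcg
Of the 41 genes 36 had an entry, and 6 of these (16.7%) held CACGTG, against 8.09% of 27025 mouse genes in windows of the same 300 bases. The motif reads the same on both strands, so each match was counted once. Of the 20 genes with an entry that passed the test between runs 5 held it, so most lacked it. Of the 16 that did not pass 1 held it, and the motif's part in the run differences was not tested. The 6 were Ltv1, Mybbp1a, Nop2, Pes1, Pno1 and Tsr1, with the first base of the motif at position -60 from the start in Nop2 and at positions from 2 to 40 in the others. A match is a run of letters and shows no binding, and no match says only that these letters are not in this window.

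**Figure D1:**
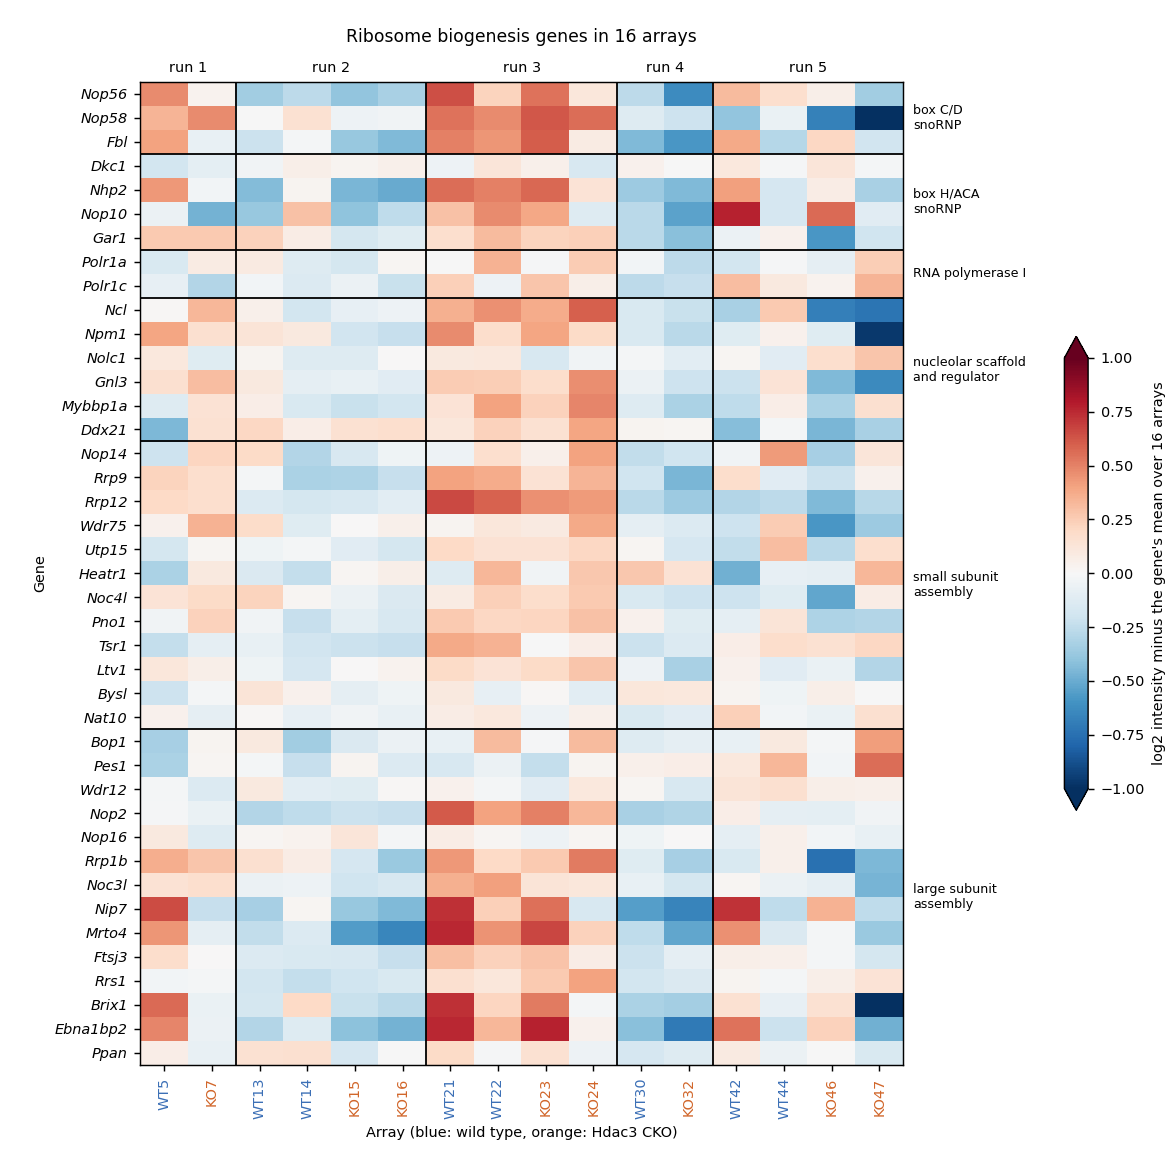
Log2 intensity of the 41 ribosome biogenesis genes (rows, grouped by role) in the 16 arrays (columns, grouped by run), each minus the gene's mean over all arrays; colours end at 1 and -1. The 4 arrays of run 3 are red for most genes, and within a run some genes are red in one array and blue in its neighbour.

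No ribosome biogenesis gene passed the test between the genotypes. In limma without a covariate 0 of 41 passed (0% of all 25697 probes passed), and 0 of 41 had an unadjusted p under 0.05, against 4.74% of all probes. With the 5 runs as a block 0 of 41 passed as well (0.218% of all probes), and 9 of 41 had an unadjusted p under 0.05, all of them lower in Hdac3 CKO, against 11.2% of all probes in either direction and 5.37% in that direction. Of all 8828 genes above the median probe 1665 had such a p, 715 of them lower, and all 9 lie above it. These 9 became 3 without run 2 (5.98% of all probes), 14 without WT44 (13.2%) and 5 without WT13 and WT14 (6.83%). The smallest adjusted p was 0.162 with the runs as a block, that of Mrto4. By sign alone 34 of 41 genes had a lower mean in Hdac3 CKO, against 49.5% of all genes and 49.4% of those above the median probe, with a median difference of -0.062 where the median of all genes was 0.00071. The 2 genotypes overlapped in all 41 genes, while 0.00603% of all genes, 1 gene, did not overlap. A lower mean in Hdac3 CKO in 5 of 5 runs was seen for 11 of the 41, against 4.94% of all genes and 6.42% of those above the median probe. Differences of the macrophage and osteoblast markers between the genotypes were uneven over the runs. By run, the macrophage median differences were 0.020, 0.79, -0.0082, -0.0098 and 0.35 for runs 1 to 5. Those of the osteoblast markers were -0.11, -0.46, -0.065, 0.093 and 0.13. Both lists thus had their widest difference for run 2, which holds WT13 and WT14. Of 12 macrophage markers 11 had a higher mean in Hdac3 CKO (median difference 0.23, 5 higher and 1 lower at an unadjusted p under 0.05 with the block), and of 9 osteoblast markers 7 had a lower mean (median -0.074, 3 lower at an unadjusted p under 0.05), and 0 of either list passed. With the macrophage mean beside the runs in the fit, 0 of the 41 genes passed and 8 had an unadjusted p under 0.05, against 8.31% of all probes, with a median difference of -0.070. The part of the osteoblast and adipocyte markers in the genotype differences was not tested.

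All 3 core proteins of box C/D snoRNPs had a lower mean in Hdac3 CKO, with differences from -0.24 to -0.19, and 0 of 3 passed. Nop56, a core scaffold protein, ran from 9.57 through a median of 10.12 to 10.57 in wild type and from 9.30 through 9.78 to 10.47 in Hdac3 CKO. Its difference was -0.24 (SE 0.085 with the runs as a block, unadjusted p = 0.0137, adjusted p = 0.287 in limma), and it was lower in 5 of 5 runs. Its partner Nop58 ran from 10.48 through 10.95 to 11.42 in wild type and from 9.26 through 10.84 to 11.50 in Hdac3 CKO. The lowest value of Nop58 was that of KO47, and its difference of -0.23 (SE 0.14) became -0.082 without that array. Fbl, the fibrillarin methyltransferase, ran from 10.78 through 11.40 to 11.73 in wild type and from 10.65 through 11.09 to 11.83 in Hdac3 CKO. The highest and the lowest Fbl value both came from Hdac3 CKO arrays, KO23 and KO32, and the difference was -0.19 (SE 0.099).

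Among box H/ACA proteins, Nhp2 and Gar1 had the smallest p-values and neither passed. Nhp2, an RNA-binding core protein, ran from 10.75 through 11.40 to 11.74 in wild type and from 10.68 through 11.01 to 11.76 in Hdac3 CKO, a difference of -0.24 (SE 0.095, adjusted p = 0.339). Its other probe, dim at a mean of 6.73, differed by -0.024. Gar1, another core protein, ran from 11.49 through 11.89 to 12.08 in wild type and from 11.18 through 11.62 to 12.03 in Hdac3 CKO, a difference of -0.19 (SE 0.066, adjusted p = 0.262). The 2 groups overlapped over most of their range in both genes. Nop10, the small protein that bridges the complex, differed by -0.24, and Dkc1, the pseudouridine synthase itself, by -0.011 on a dim probe.

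The 2 measured subunits of RNA polymerase I had differences close to 0. Polr1a, the largest subunit, ran from 11.04 through 11.21 to 11.58 in wild type and from 10.96 through 11.23 to 11.48 in Hdac3 CKO, a difference of 0.015 (SE 0.078, 95% interval -0.15 to 0.18). Its 3 probes disagreed in sign, from -0.025 to 0.099. Polr1c, a subunit that RNA polymerase III shares, ran from 10.04 through 10.26 to 10.60 in wild type and from 10.00 through 10.28 to 10.64 in Hdac3 CKO, a difference of -0.021 (95% interval -0.16 to 0.11). Leaving out single arrays turned the sign of either difference.

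Nucleolar scaffold proteins and regulators followed KO47 in part. Npm1 ran from 13.15 through 13.41 to 13.77 in wild type and from 12.34 through 13.14 to 13.69 in Hdac3 CKO, a difference of -0.26 (SE 0.10, adjusted p = 0.326) that was -0.16 without KO47, the lowest array. Gnl3, the nucleolar GTPase nucleostemin, ran from 12.31 through 12.64 to 12.77 in wild type and from 11.88 through 12.43 to 12.99 in Hdac3 CKO, a difference of -0.13 (SE 0.083). Hdac3 CKO held both the lowest Gnl3 values, in run 5, and the highest, in KO24. Ncl, which encodes nucleolin, differed by -0.12, the RNA helicase gene Ddx21 by 0.063, Mybbp1a, which encodes a nucleolar Myb-binding protein, by -0.0034 and Nolc1, whose product binds snoRNPs, by -0.023.

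In the small subunit group 10 of 12 means were lower in Hdac3 CKO, with differences no wider than -0.13. Rrp9, a protein of the U3 snoRNP, ran from 8.19 through 8.58 to 8.90 in wild type and from 8.04 through 8.41 to 8.84 in Hdac3 CKO, a difference of -0.13 (SE 0.060, adjusted p = 0.426). It was lower in each of the 5 runs. Heatr1, a processome scaffold, ran the other way, from 11.02 through 11.37 to 11.84 in wild type and from 11.41 through 11.58 to 11.84 in Hdac3 CKO, a difference of 0.20 (SE 0.094, adjusted p = 0.455). Of the 8 wild type values 5 lay below every Hdac3 CKO value, but its 4 probes disagreed, from -0.026 to 0.20. The dimmest of these 4 had a mean of 6.18, below the median probe.

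Large subunit factors held the 3 largest negative differences, those of Mrto4, Brix1 and Nip7. Mrto4, known in yeast as a placeholder for the stalk protein P0, ran from 9.36 through 9.77 to 10.37 in wild type and from 8.97 through 9.39 to 10.29 in Hdac3 CKO. Its difference was -0.33 (0.795-fold, SE 0.092, unadjusted p = 0.00243, adjusted p = 0.162), with run differences from -0.53 to -0.16, all below 0. Brix1, an assembly factor of early large subunit particles, ran from 10.75 through 11.25 to 11.80 in wild type and from 10.04 through 10.92 to 11.58 in Hdac3 CKO. Its difference of -0.32 (SE 0.14, adjusted p = 0.409) was -0.20 without KO47, its lowest array. Rrp1b, a nucleolar protein related to yeast Rrp1, ran from 9.79 through 10.06 to 10.37 in wild type and from 9.20 through 9.69 to 10.46 in Hdac3 CKO, a difference of -0.25 (SE 0.084, adjusted p = 0.252). Its 3 probes ran from -0.25 to -0.037, the dimmest with a mean of 6.73. Noc3l, related to the yeast large subunit factor Noc3, ran from 8.26 through 8.33 to 8.75 in wild type and from 7.87 through 8.21 to 8.50 in Hdac3 CKO, a difference of -0.17 (SE 0.055, adjusted p = 0.226). Both groups of Noc3l overlapped, with KO47 the lowest array. Bop1, which forms a complex with Pes1 and Wdr12 that large subunit RNA processing needs, ran from 9.88 through 10.15 to 10.55 in wild type and from 10.08 through 10.21 to 10.65 in Hdac3 CKO, a difference of 0.11 (SE 0.086). Its partners differed by 0.075 (Pes1) and by -0.077 (Wdr12, on a dim probe). Bop1, Pes1 and Rrs1, a factor known in yeast for bringing in the 5S particle, were the 3 genes of the 41 with a higher mean in Hdac3 CKO in every run. Of all 16593 genes 791 did so, and 533 of the 8828 above the median probe, so the count was near that share. Rrs1 differed by 0.087 (SE 0.042). It ran from 6.49 through 6.71 to 6.89 in wild type and from 6.53 through 6.75 to 7.13 in Hdac3 CKO, so the groups overlapped over nearly all of the wild type range. Nip7, known in yeast for late steps of large subunit RNA processing, differed by -0.30, but its 3 probes ran from -0.30 to 0.088. The dimmest of these 3 had a mean of 6.20, below the median probe.

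**Figure D2:**
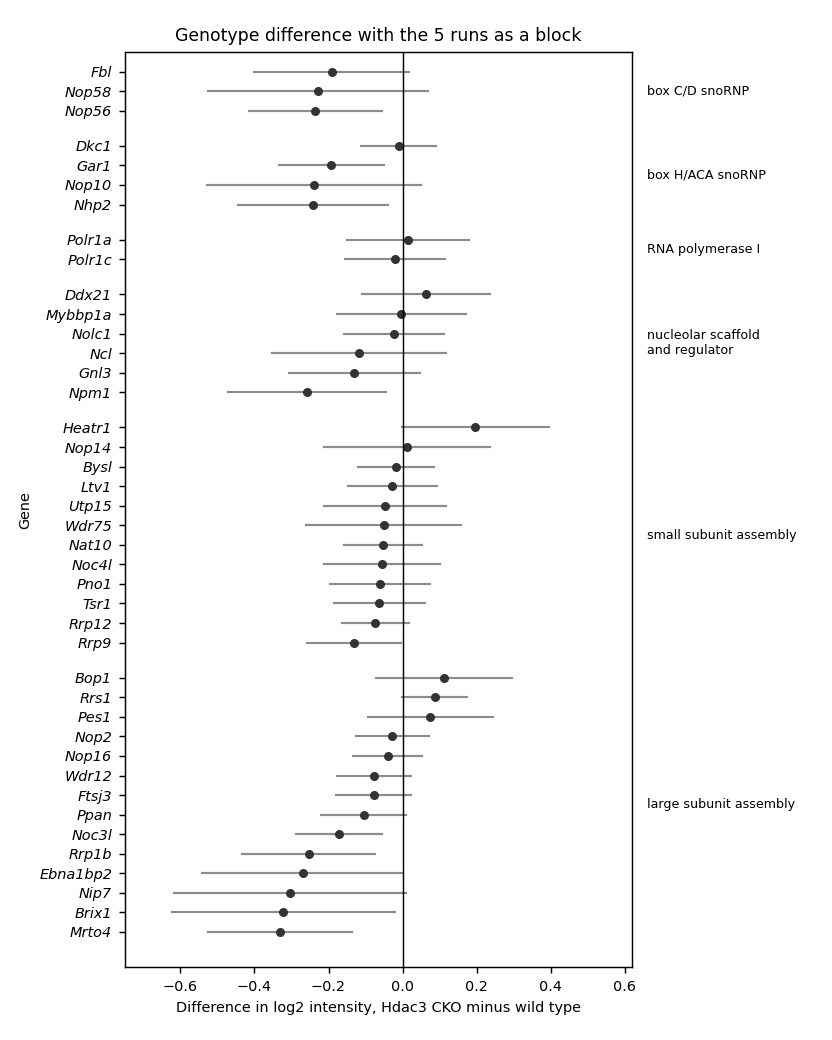
Difference in log2 intensity, Hdac3 CKO minus wild type, of each of the 41 genes with the 5 runs as a block (points) and its 95% confidence interval (lines, limma, n = 8 arrays per genotype), by role. Most points lie below 0, from -0.33 for Mrto4 to 0.20 for Heatr1, and no gene passed after adjustment.

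The levels of 24 of the 41 genes differed between runs, and 22 of these were highest in run 3. The test was limma with genotype in the fit, where 20.1% of all probes and 37.7% of the probes above the median probe passed. The exceptions were Gar1, highest in run 1, and Polr1c, highest in run 5. The range of the 5 run means had a median of 0.43 over the 41 genes, beside a median size of 0.078 for the genotype difference, although a range of 5 means is wider than a difference of 2 by construction. Over all 41 genes 29 had their highest mean in run 3, against 19.3% of all genes and 20.6% of those above the median probe. Within wild type alone and within Hdac3 CKO alone run 3 was highest for 19 of the 41, against 6.66% of all genes. The count of 24 was 11 without run 3, 12 without runs 3 and 5, and between 19 and 26 when single arrays were left out.

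All 3 box C/D genes, 2 of 4 box H/ACA genes, 1 of 2 polymerase subunits, 5 of 6 nucleolar scaffold and regulator genes, 5 of 12 small subunit genes and 8 of 14 large subunit genes passed between runs. Rrp12, a late factor of small subunit particles that helps their export, had the largest F (65.5, adjusted p = 3.24e-07). It stood at 10.48, 10.40, 10.27 and 10.24 in WT21, WT22, KO23 and KO24, at 10.02 and 9.98 in run 1, and between 9.37 and 9.71 in the other 10 arrays. Run 3 was apart from all other arrays, and the genotypes lay close within each run, with a genotype difference of -0.074 (SE 0.043). Nop2, which methylates a cytosine of the large subunit RNA, came next (F 37.8, adjusted p = 6.17e-06). It stood between 8.83 and 9.12 in run 3 and between 8.17 and 8.57 in the other 12 arrays, and all 3 of its probes passed between runs although they disagreed in the sign of the genotype difference (-0.028 on the brightest).

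For 5 genes, Nop58, Ncl, Rrp12, Ltv1 and Nop2, all 4 arrays of run 3 lay above the other 12, where 1.13% of all genes and 1.84% of those above the median probe did so. Nop58 had the widest range of run means, 11.43 in run 3 and 10.19 in run 5, where KO46 at 10.20 and KO47 at 9.26 were lowest. Nop56 had its mean at 10.30 in run 3, 10.18 in run 1 and 9.48 in run 4 (adjusted p = 0.00101). Fbl stood at 11.63 in run 3 and 10.72 in run 4 (adjusted p = 0.00415), and Nhp2 at 11.63 and 10.78 (adjusted p = 0.00213). The other 4 snoRNP genes had other extremes. Nop58 was lowest in run 5, Gar1 was highest in run 1 and lowest in run 4, and Nop10 (adjusted p = 0.0900) and Dkc1 (adjusted p = 0.509) did not pass and had their highest means in run 5.

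Mrto4 stood at a mean of 10.14 in run 3 and 9.22 in run 2 (adjusted p = 0.000504), and Rrp9 at 8.82 in run 3 and 8.17 in run 4 (adjusted p = 0.000532). Rrs1 was at 6.97 in run 3 and 6.54 in run 2 (adjusted p = 0.000477), although this probe lies close to the median probe. Ftsj3, known in yeast as an RNA methyltransferase of large subunit particles, ranged over the runs by 0.39 (adjusted p = 0.00355). Its values ran from 7.90 through 8.17 to 8.42 in wild type and from 7.89 through 8.06 to 8.40 in Hdac3 CKO, nearly the same range. Tsr1, a late small subunit factor, was at 7.91 in run 3 and 7.87 in run 5 and at 7.54 to 7.55 in the other runs (adjusted p = 0.00533). Run 5 was therefore high for Tsr1 and low for Nop58.

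Rrp1b and Noc3l were lowest in run 5, at 9.62 and 8.19, and highest in run 3, at 10.29 and 8.59 (adjusted p = 0.00258 and 0.00379). Gnl3 (adjusted p = 0.0125) and Npm1 (adjusted p = 0.0240) showed the same order of extremes, 12.80 against 12.23 and 13.61 against 13.01. The call of Npm1 was lost without KO7, WT21, KO23 or KO24, at adjusted p-values from 0.0503 to 0.0624. It was also lost without run 2 and without run 3, and the highest adjusted p (limma moderated F) among the 6 losses was 0.167. Among genes that did not pass, Bop1, Pes1 and Heatr1 had their highest means in run 3, run 5 and run 4, and Brix1 (adjusted p = 0.129) passed without KO46 or without KO47 (adjusted p = 0.0307 and 0.0411). Of the 16 called genes followed through 26 alternatives, Gar1, Mrto4, Nop56, Nop58, Rrp12, Rrp1b and Rrp9 passed under each, and the others lost the call under 1 to 6 of them.

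**Figure D3:**
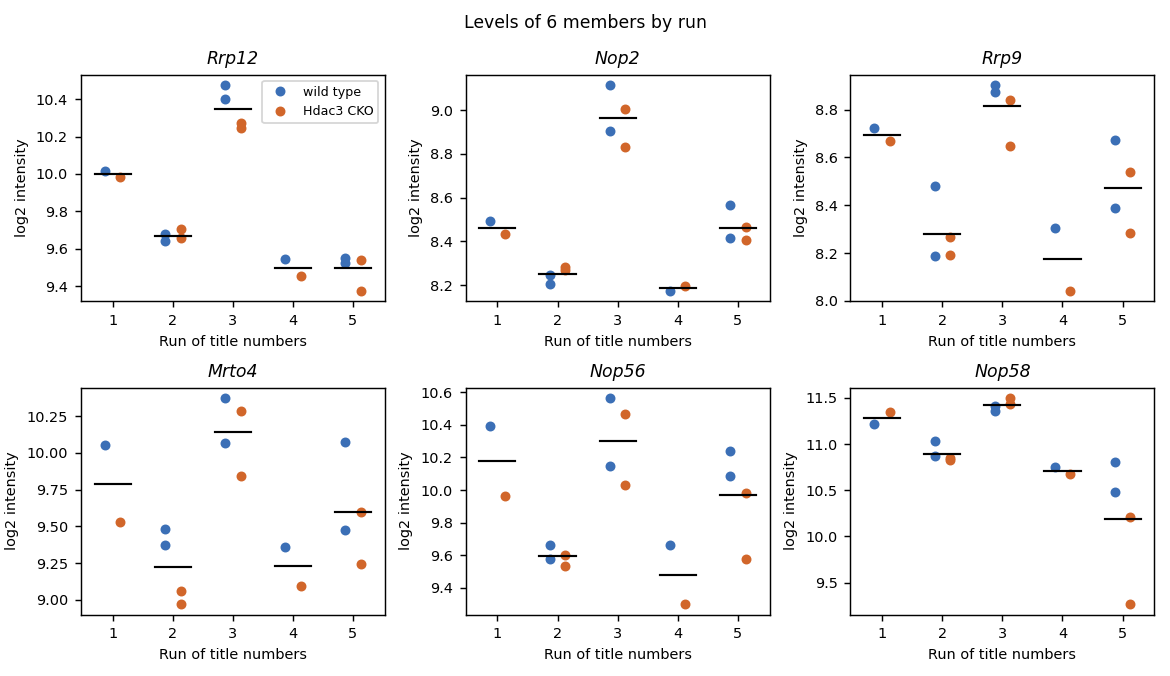
Log2 intensity of Rrp12, Nop2, Rrp9, Mrto4, Nop56 and Nop58 in every array by run (points, blue wild type, orange Hdac3 CKO; bars are run means; each panel has its own axis, which does not start at 0). Run 3 is highest in all 6 panels, and KO47 is the lowest array for Nop58.

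Whether the genotype difference itself changed from run to run was tested by an interaction term, and 0 of 41 genes passed (0.494% of all probes passed). An unadjusted p under 0.05 was found for 5 of the 41, against 7.62% of all probes, with a smallest adjusted p of 0.471. All 5 lie above the median probe, where 1198 of 8828 genes had such a p, so the count was near that share. The 5 were Nop58, Ncl, Nolc1, Pno1 and Tsr1. The count was 3 of 41 after a constant of 40 was subtracted from the intensities (7.11% of all probes) and 1 of 36 when the fit held only probes above the median probe (9.28%). Ncl was the clearest by p, with differences of 0.32 in run 1, 0.0029 in run 2, 0.075 in run 3, -0.068 in run 4 and -0.68 in run 5. Nop58 differed by -0.91 in run 5 and by -0.12 to 0.13 in the other runs.

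Arrays of one genotype and run also differed from each other, and in 2 opposite directions. KO15 and KO16 lay closest, with a median absolute difference over the 41 genes of 0.057, and KO46 and KO47 lay farthest apart, at 0.31. After the mean of each run was removed, the first principal component of the 36 genes above the median probe held 57.2% of their variance, and that of 8792 other genes held 35.4%, shares that are not comparable between sets of such unequal size. The array scores on the 2 components went together (r = 0.94, a description over 16 arrays that share runs), so the order of arrays was not particular to the ribosome biogenesis genes. The 8 genes at one end were Nip7, Brix1, Ebna1bp2, Nop10, Mrto4, Nhp2, Fbl and Nop56. The 8 at the other end were Heatr1, Bop1, Nop14, Pes1, Mybbp1a, Ddx21, Polr1a and Wdr75. These ends were picked from the values, with the genotype difference left in, so the differences below are descriptions with no test.

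The difference WT5 minus KO7 ran from 0.41 to 0.88 over the first 8 genes and from -0.60 to -0.24 over the last 8. Of the 6 pairs of arrays of one genotype and run, 4 showed the same opposition in all 16 genes, 1 showed it in medians and 1 hardly differed. For KO23 minus KO24 the first 8 ran from 0.44 to 0.73 and the last 8 from -0.35 to -0.25. For WT42 minus WT44 they ran from 0.15 to 0.98 and from -0.46 to -0.17. For KO46 minus KO47 they ran from 0.35 to 1.18 and from -0.59 to -0.13, so that KO47 was low for the Nip7 end and high for the Heatr1 end. WT14 minus WT13, turned this way round because it shows the same sign, had medians of 0.27 and -0.22. For WT21 minus WT22 the medians were 0.36 and -0.24, but the first 8 genes crossed 0, from -0.18 to 0.52. KO15 and KO16 hardly differed, with medians of 0.051 and -0.047. WT30 minus KO32, the pair of run 4, showed no opposition, with medians of 0.20 and 0.028 and the last 8 genes from -0.045 to 0.24.

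The genes at the first end had genotype differences from -0.33 to -0.19 and those at the other end from -0.051 to 0.20. Because genotype was not removed before the ends were picked, a wide genotype difference can itself place a gene at an end. The 4 widest genotype differences, of Mrto4, Brix1, Nip7 and Ebna1bp2, were those of genes that also moved between arrays of one genotype. The part of this pattern in them was not tested. By gene length the 8 genes of either end differed almost without overlap, but the genes between the ends did not keep this order. The first 8 genes span 1.0 to 11.2 kb of the genome (median 5.0 kb, RefSeq, introns included) and the last 8 span 10.4 to 70.4 kb (median 23.2 kb). Of the genes between, those leaning to the first end span 4.0 kb (Ppan) to 36.7 kb (Rrp12). Those leaning to the other end span 2.0 kb (Rrs1) to 16.1 kb (Utp15). The part of gene length in the pattern was not tested. By role, the first end held 4 of the 7 snoRNP proteins and 4 large subunit factors, and the other end held 3 small subunit factors, 2 large subunit factors, 2 regulators and the largest polymerase subunit. Over all pairs of the 36 genes the median Pearson correlation was 0.45 over the 16 arrays, which share runs, and 0.11 after run means were removed, where pairs of all 8828 genes above the median probe had 0.0010 and 0.0045.

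**Figure D4:**
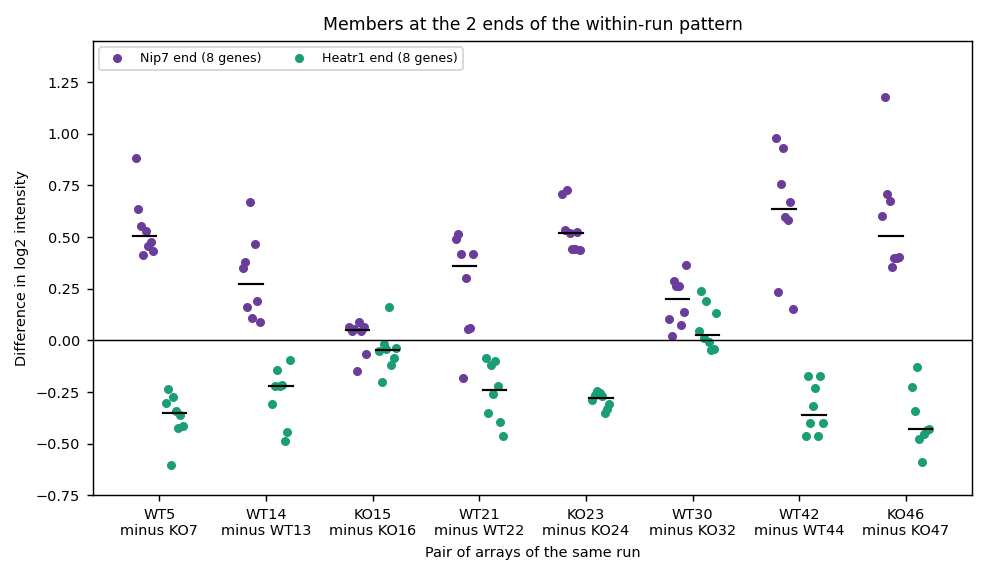
Difference in log2 intensity between 2 arrays of one run for the 8 genes at the Nip7 end (purple) and the 8 at the Heatr1 end (green) of the pattern within runs; bars are medians. The 2 sets lie on opposite sides of 0 in WT5 minus KO7, WT14 minus WT13, KO23 minus KO24, WT42 minus WT44 and KO46 minus KO47, while some purple points cross 0 in WT21 minus WT22. Both sets lie around 0 in KO15 minus KO16, and in WT30 minus KO32 the purple points lie above 0 and the green ones on both sides of it.

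Other genes of the same pathway were high in the same arrays. Of 68 other assembly factors 34 passed between runs and 46 had their highest mean in run 3, and 7 of 14 subunits of the RNA exosome, which trims the precursor, passed. Of all probes 20.1% passed, and 37.7% of those above the median probe, where 59 of the 68 and 11 of the 14 lie. Of genes above the median probe 20.6% had their highest mean in run 3. Each array's median deviation from the gene means lay between 0.20 and 0.24 in run 3 for the ribosome biogenesis genes, between 0.15 and 0.18 for the other assembly factors and between 0.13 and 0.17 for the exosome. In run 4 these medians were -0.15 and -0.21, -0.098 and -0.16, and -0.10 and -0.17 for WT30 and KO32. Of nucleotide synthesis genes, which supply the precursors of RNA, 10 of 14 passed between runs, and Uck2, a uridine and cytidine kinase, was the one with the smallest genotype p (difference -0.22, adjusted p = 0.120 with the block). Polymerase I factors passed in 2 of 8, among them Taf1d, which had the widest genotype difference of that list (-0.37, adjusted p = 0.260).

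Ribosomal protein genes followed the order of runs only in part. Their median deviation was lowest in run 4, at -0.17 for large and -0.18 for small subunit proteins, where the ribosome biogenesis genes were at -0.18. In run 3 it was highest, at 0.096 in both lists, against 0.24 for the ribosome biogenesis genes. Run 5 was nearly as high, at 0.095 and 0.092, where the ribosome biogenesis genes were at -0.022. Of 35 large subunit proteins 13 passed between runs and 15 were highest in run 3, and of 24 small subunit proteins 3 passed and 8 were highest there. Of probes above the median probe 37.7% passed between runs, and 20.6% of genes above it were highest in run 3. Among single arrays the median deviation of the large subunit proteins was highest in WT42, at 0.20. Between genotypes 30 of 35 and 20 of 24 had a lower mean in Hdac3 CKO, with medians of -0.11 and -0.10, and 0 passed in either fit in either list (limma, 12 and 6 at an unadjusted p under 0.05 with the block). Over both genotype fits 0 genes of the other pathway lists (other assembly factors, polymerase I factors, RNA exosome, Myc network, nucleotide synthesis and cell cycle) passed in limma. With the runs as a block 19 of the 68 other assembly factors had an unadjusted p under 0.05, 17 of them lower in Hdac3 CKO. In the next 5 lists 2 of 8, 3 of 14, 2 of 11, 4 of 14 and 3 of 17 genes did. Of all 8828 genes above the median probe 1665 did, 715 of them lower, which also stands beside the 12 and 6 above. Krr1, a processome protein, had the smallest p of the other assembly factors (difference -0.26, adjusted p = 0.208).

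Myc, at a mean of 7.14, passed between runs (adjusted p = 0.0235) with its highest mean in run 1, and differed by -0.099 between genotypes (SE 0.067, adjusted p = 0.639 with the block). Of the 11 genes of the Myc network 5 passed between runs and 2 were highest in run 3. Above the median probe, where 8 of the 11 lie, 37.7% of probes passed and 20.6% of genes were highest in run 3. The network's median deviation was highest in run 5, at 0.089, and was 0.019 in run 3. The part of Myc in the run differences was not tested. Cell cycle genes passed between runs in 14 of 17, with array medians of 0.26 and 0.30 in run 1, 0.21 to 0.28 in run 3 and -0.26 to -0.072 in the other runs. Run 1 was thus as high as run 3 for the cell cycle, while the ribosome biogenesis genes had medians of 0.065 and 0.023 in run 1. The part of cell division in the run differences was not tested.

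**Figure D5:**
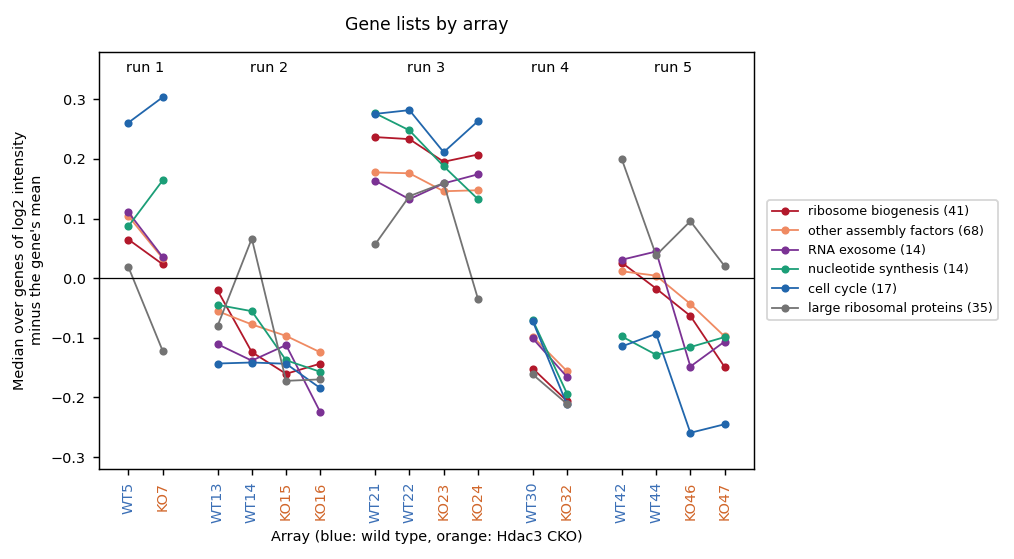
Median over the genes of a list of log2 intensity minus the gene's mean over 16 arrays (points; lines join arrays of one run; numbers of genes in the key). Ribosome biogenesis, other assembly factors, exosome and nucleotide synthesis are all highest in run 3, the cell cycle is high in runs 1 and 3, and large ribosomal proteins are highest in WT42.

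Markers of the cells in the culture moved with the runs in another way. Of 10 osteoblast markers 9 were measured. Ibsp, the bone sialoprotein gene, ran from 9.34 to 14.34 and was highest in run 2, and Dmp1, a late osteocyte marker, stayed between 6.10 and 6.63, near the median probe. Of 14 macrophage markers 12 were measured, with Csf1r and Cd68 not analysed here, and their mean level ran from 9.95 to 11.5 in wild type and from 10.8 to 11.6 in Hdac3 CKO. Lyz2, the macrophage lysozyme gene, was at 14.52 or above in every array, while Ptprc, the common leukocyte antigen gene, stayed between 6.56 and 7.33. The macrophage median deviation was -0.74 and -0.70 in WT13 and WT14 and between 0.18 and 0.67 in runs 4 and 5. Of 9 adipocyte markers 8 had a higher mean in Hdac3 CKO (median difference 0.35) and Adipoq passed with the block (adjusted p = 0.00105), and its highest run was run 2. By run, the adipocyte median differences were 0.10, 0.80, 0.080, 0.20 and 0.34 for runs 1 to 5. The interaction test was passed by 3 of the 9 markers, against 0.494% of all probes. The 5 endothelial, 4 erythroid and 4 lymphocyte markers had 0 genes past the test between genotypes (limma), and 0 at an unadjusted p under 0.05 with the block. In run 3, where the ribosome biogenesis genes were highest, the median deviations of osteoblast markers ran from -0.47 to -0.14 and those of macrophage markers from -0.077 to 0.045, and the part of cell composition in the run differences was not tested.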

How the data were processed

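Biotin-labelled total RNA, isolated with TRIzol per the labels' protocols, was measured on an Illumina mouse expression BeadChip in 16 arrays. The deposited table holds one intensity per probe and array on a linear scale. The authors quantile normalized these intensities across arrays: the sorted values of all arrays are nearly the same, from 53.1 to 37892. The software, background correction and filters are not stated in the sources used here. The number of arrays limits the precision.

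Intensities were turned into log2 (no value lay below a floor of 16). Of 25697 probes 23978 carried 1 gene symbol in the platform annotation and 1719 none. Genotype was tested on log2 intensity by limma (version 3.58.1, under R 4.3.3), with lmFit, eBayes and two-sided p-values adjusted by Benjamini-Hochberg over all probes at a threshold of 0.05, without a covariate and with the title-number runs as a fixed block. The differences between runs and the genotype by run interaction were tested by moderated F. The procedure was tested on simulated data. For balanced runs both genotype fits give the same difference and only the SE changes. The genes with full values were those past a test (at most 12, by p), the smallest p-values of each role and the extreme differences. The members, gene lists and tests were chosen with earlier results of these data known. Alternatives covered the background, scaling, dim probes, probe choice, a random block, run means, covariates, and each array or run left out. Python 3.11.15 and numpy 2.4.6 did the rest, and matplotlib 3.10.9 drew the figures.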

Additional observations from a re-analysis of the deposited data

Results flagged for a closer look

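Pes1, a large subunit assembly factor, stood at 10.33 in KO47, while the next highest of the 8 Hdac3 CKO arrays was at 9.83, a gap of 0.62 of the whole range, which is above the 95% critical value of Dixon's test. It was the 1 such value in 82 groups of 8 arrays (41 genes in 2 genotypes), where chance alone would give about 4.1. KO47 was also the lowest Hdac3 CKO array for Nop58, Npm1, Brix1 and Noc3l.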

How the results depend on the processing

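The count of ribosome biogenesis genes past the test between genotypes was 0 under each of 32 alternatives to the fit without a covariate and each of 30 alternatives to the fit with the runs as a block (limma, or an exact rank sum test), with at most 9 and 14 genes at an unadjusted p under 0.05. The median difference stayed below 0, from -0.12 to -0.041 and from -0.089 to -0.050. Between runs 24 genes passed, 11 without run 3 and 12 without runs 3 and 5, the latter an alternative chosen after seeing the data, and 19 to 26 without single arrays. With the block, Polr1a (0.015) turned to -0.016 without run 1 and to -0.038 without run 5 and ranged from -0.030 to 0.053 without single arrays, and Polr1c (-0.021) turned to 0.0059 without run 1 and ranged from -0.055 to 0.0067. The cause was not tested. Of all 25697 probes, 56 passed between genotypes with the block, against 149 without run 4, 5 without run 2 and 0 with a random block or with run means as pairs (limma, 14 ribosome biogenesis genes at an unadjusted p under 0.05 with pairs, against 9.97% of all probes). Between runs 5164 probes passed, against 2988 without run 3 and 2100 without runs 3 and 5, and for the interaction 127, against 69 after a constant of 40 was subtracted and 76 among brighter probes. The labels give the genotypes no shared replicate numbers, so arrays were paired only by run. Fewer arrays per run, 2 in runs 1 and 4, and dim probes limit what could be detected.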
